A study of Mus musculus with 15 samples.

Results

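The 10 libraries compared here come from mice that carry a mutant Plag1 allele, split by the number in the animal's name. The heterozygotes HET-692 and HET-693 and the homozygotes KO-694, KO-695 and KO-696 are numbered below 700. HET-715, HET-718, HET-735, KO-738 and KO-739 are numbered 700 and above. These 10 were taken out of 15 libraries by genotype and number, with earlier results of these data known. HET animals are heterozygous and KO animals homozygous for the loss of Plag1, a gene for a zinc finger factor that binds DNA, and the lower range holds 2 HET and 3 KO mice and the upper range 3 HET and 2 KO mice. The other 5 libraries are from wild-type (WT) mice, all numbered 700 and above, and serve only as a reference level. Each library is RNA from the epididymis of 1 male aged 7 weeks, with a strain label of Brown Swiss for every animal and no treatment named. Per the labels' protocols, the tissue was pulled apart in buffered saline and rinsed to remove sperm before RNA was taken. The labels do not say what the numbers stand for (litter, cage, day or batch), and how the knockout allele was made is not given in the sources used here.

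Total counts per library were 25.3 to 41.96 M below 700, 23.6 to 33.0 M at 700 and above, and 20.3 to 27.8 M in WT. Ribosomal RNA made up 1.296% of counts in HET-693 and 1.289% in KO-738, 1 library in each range, and at most 0.509% in the others. On the first principal component of the 10 mutant libraries (33.5% of the variance), KO-694, KO-695 and KO-696 lay at 22.4, 42.4 and 49.2 and KO-739 at 25, while KO-738 lay at -31.7, beyond the HET libraries (-30.4 to -1.6, with HET-692 nearest to the KO libraries below 700). KO-739 lay alone at -74 on the second component (24.7%), against -6.4 to 20.5 for the rest. These libraries touch many of the results. Defining genes of the epididymal epithelium were abundant everywhere: Gpx5, a secreted peroxidase of the caput, held 27251 to 31572 CPM (counts scaled to the library's total, as edgeR gives them) below 700 and 22555 to 31352 CPM at 700 and above. Plag1 itself (NCBI Gene 56711; GRCm38.p6 chromosome 4, 3898769 to 3938430) was at 9.66, 10.6, 8.19, 6.99 and 7.91 CPM in the libraries below 700, in the order given above, and at 10.4, 8.09, 11.8, 9.41 and 9.17 CPM in those at 700 and above. WT held 12.0 to 13.9 CPM, above every mutant library, and HET and KO overlapped. Levels in the 2 ranges overlapped too and differed by -0.13 ± 0.11 (SE) on the log2 scale (edgeR adjusted p = 0.560). Within KO the 3 libraries below 700 lay under the other 2 (-0.27, adjusted p = 0.350), as in 15.1% of all genes. Counts are per gene, so where in Plag1 these reads lie is not known, and the level does not check the knockout.

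The epididymis is a single coiled duct that receives sperm from the testis through the efferent ducts, whose lining carries motile cilia. Its epithelium secretes region by region the proteins that sperm need to mature, among them beta-defensins and protease inhibitors, largely under androgen control, and its cells divide less as the animal matures. Spermatids and spermatocytes belong to the testis, and their transcripts can reach the epididymis within sperm or shed germ cells. The molecular clock is a loop in which Arntl and Clock or Npas2 drive the Per, Cry, Nr1d and PAR bZIP genes (Dbp, Tef, Hlf), some of which feed back on the drivers.

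No gene passed the test of number range with genotype as a term. Of 20382 genes tested with edgeR's quasi-likelihood test, 0 (0%) had a Benjamini-Hochberg adjusted p under 0.05, and the smallest was 0.174. At an unadjusted p under 0.05, used below only to describe lists, there were 1849 genes higher below 700 (9.07% of all tested) and 1370 lower (6.72%). The lists were chosen with earlier results of these data known, so their counts are descriptions. DESeq2 called 228 genes higher (1.12%) and 222 lower (1.09%), whereas limma voom called 0. Without KO-738, when KO-739 is the only KO library at 700 and above, edgeR called 80 genes, 4 higher and 76 lower. Of the 76, 71 had their highest mutant value in KO-739, among them the skeletal muscle genes Myh7 and Pvalb. In 316 genes (1.55%) every mutant library below 700 lay above every one at 700 and above, and in 249 genes (1.22%) every one lay below. Differences are given as below 700 minus 700 and above on the log2 scale, with SE.

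HET and KO libraries share no animal, so their range differences are separate estimates. Their p-values are not separate, since the spread of each gene was estimated over all mutant libraries together. Within HET, 280 genes (1.37%) were higher and 365 (1.79%) lower at an unadjusted p under 0.05, and within KO 2125 (10.4%) were higher and 1726 (8.47%) lower, with 0 genes past the adjusted threshold in either (3 and 899 by DESeq2, and 1256 in KO without KO-738, which leaves KO-739 alone in its group). Fitted alone, the 5 HET libraries gave 1285 of 19307 genes under 0.05, and the 5 KO libraries 2607 of 20174. Of the 3851 genes under 0.05 in KO in the joint fit, 76% had the same sign in HET, against 63% of all genes. The median absolute difference was 0.104 in HET and 0.176 in KO. Across genes, which are not independent replicates, the HET and KO differences had a Pearson r of 0.337 and a Spearman rho of 0.312. The test of the difference between the genotypes called 0 genes, with 1140 at an unadjusted p under 0.05 (the KO difference above that of HET in 2.81% and below it in 2.79% of all genes; 10 called by DESeq2 and 226 by edgeR without KO-738).

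**Figure D1:**
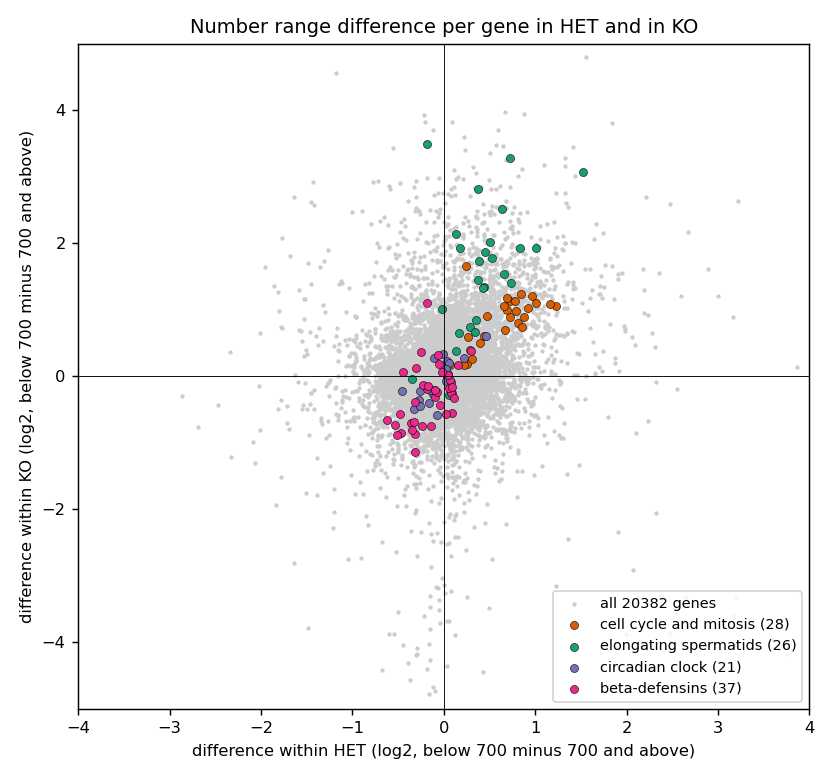
Each point is a gene, with its number range difference (log2, below 700 minus 700 and above) within HET on the x axis and within KO on the y axis; 49 genes lie outside the plotted range. Genes of the cell cycle list sit at upper right, those of elongating spermatids mainly along the upper KO axis, and most beta-defensins at lower left.

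Genes of mitosis had higher values below 700 in both genotypes, though 0 passed the adjusted threshold. Of 28 genes listed for the cell cycle, all tested, 22 were higher at an unadjusted p under 0.05 (9.07% of all genes were) and 0 lower. All 28 differences were positive, with a median of 0.83 beside 0.0043 over all genes, 0.69 within HET and 0.91 within KO. Libraries of the 2 ranges did not overlap in 9 of the 28 (1.55% of all genes, higher below 700). DESeq2 called 14 of the 28 higher (1.12% of all genes).

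Birc5 (NCBI Gene 11799; GRCm38.p6 chromosome 11, 117849237 to 117855743), which encodes the survivin subunit of the chromosomal passenger complex, was at 3.99, 2.73, 3.73, 7.44 and 4.21 CPM below 700 and at 1.61, 1.96, 1.80, 2.33 and 2.69 CPM at 700 and above. The lowest library below 700, HET-693, lay just above the highest of the other range, KO-739, and WT held 1.504 to 2.90 CPM. The difference was 0.98 ± 0.21 (edgeR adjusted p = 0.200). Kif2c (NCBI Gene 73804; GRCm38.p6 chromosome 4, 117159633 to 117182624), a motor that takes apart microtubules at kinetochores, was at 6.12, 3.70, 4.08, 8.39 and 6.59 CPM and at 3.04, 2.83, 2.74, 2.86 and 2.93 CPM. The 5 libraries at 700 and above were within a narrow band, and all 5 below 700 stood over it, with a difference of 0.96 ± 0.21 (adjusted p = 0.200).

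Checkpoint and spindle genes named after their values were seen had the same layout. The checkpoint kinase gene Bub1b was at 4.06 to 11.1 CPM below 700 against 1.60 to 3.52 CPM (1.14 ± 0.28), and Cdc20, the activator of the anaphase-promoting complex, at 4.74 to 14.9 against 2.76 to 3.97 CPM (1.09 ± 0.29). Mki67, the proliferation antigen that coats mitotic chromosomes, was at 35.7, 22.7, 26.8, 60.5 and 30.4 CPM against 16.0, 20.6, 16.6, 21.1 and 21.5 CPM. KO-695 was the highest library for each of these genes. The 6 members that were not under 0.05 serve DNA replication: the helicase subunits Mcm2, Mcm3, Mcm5 and Mcm6 differed by 0.20, 0.22, 0.34 and 0.29, the sliding clamp gene Pcna by 0.12 and the ribonucleotide reductase subunit Rrm2 by 0.01. In each of the 6 the libraries of the 2 ranges overlapped.

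The list score, an average of log2 CPM over the tested members set to 0 for the mean of WT, was 0.85, 0.29, 0.47, 1.52 and 0.75 below 700 and -0.08, 0.11, -0.09, 0.14 and 0.26 at 700 and above. The ranges did not overlap, but HET-693 and KO-739 were close, and the WT libraries ran from -0.28 to 0.33. Leaving out 1 library at a time gave 16 (without HET-692) to 25 members under 0.05 and medians from 0.61 (without KO-695) to 0.95. Without HET-693 and KO-738, the libraries rich in ribosomal RNA, it was 21, when 13.7% of all genes were higher.

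Promoter sequence is shown for the 4 members of lowest p whose upstream 250 bases, as RefSeq gives them for GRCm38.p6, hold both a CCAAT box (CCAAT or ATTGG) and a core of the cell cycle genes homology region (TTTGAA or TTCAAA). Both strands were searched, matches are in capitals, and the 2 motifs can overlap by a single base.
Cdc20 (chr4:118437344-118437593, minus strand): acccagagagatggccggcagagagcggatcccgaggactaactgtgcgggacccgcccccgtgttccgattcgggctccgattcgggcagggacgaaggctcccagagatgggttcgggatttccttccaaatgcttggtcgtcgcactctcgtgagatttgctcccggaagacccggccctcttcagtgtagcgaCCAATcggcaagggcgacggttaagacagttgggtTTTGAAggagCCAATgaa
Ccnb2 (chr9:70421555-70421804, minus strand): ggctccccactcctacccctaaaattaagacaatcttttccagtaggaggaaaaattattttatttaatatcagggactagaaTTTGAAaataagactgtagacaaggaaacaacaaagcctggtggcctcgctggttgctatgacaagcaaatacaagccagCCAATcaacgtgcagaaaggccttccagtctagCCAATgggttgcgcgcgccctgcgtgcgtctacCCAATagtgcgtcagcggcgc
Top2a (chr11:99024190-99024439, minus strand): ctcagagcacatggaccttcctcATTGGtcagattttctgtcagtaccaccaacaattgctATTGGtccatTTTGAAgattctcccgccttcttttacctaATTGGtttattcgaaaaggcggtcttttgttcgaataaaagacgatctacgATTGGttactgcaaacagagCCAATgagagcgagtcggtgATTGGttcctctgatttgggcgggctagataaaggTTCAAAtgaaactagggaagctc
Mki67 (chr7:135716380-135716629, minus strand): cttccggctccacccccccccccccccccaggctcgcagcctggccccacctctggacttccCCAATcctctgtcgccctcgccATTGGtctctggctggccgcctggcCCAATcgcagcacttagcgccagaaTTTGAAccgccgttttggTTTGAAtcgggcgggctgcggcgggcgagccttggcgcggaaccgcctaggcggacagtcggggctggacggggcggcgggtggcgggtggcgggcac
Each sequence ends at the base before the annotated start. Of the 28 genes, 24 had a window, in 25 windows, and 22 of these (88.0%) held CCAAT or ATTGG, against 33.8% of 32851 mouse windows of the same length. TTTGAA or TTCAAA stood in 10 of the 25 (40.0%), against 16.0% of all. Ccnb2, a mitotic cyclin, was at 4.31 to 14.3 CPM below 700 and 2.48 to 4.75 CPM above, and Top2a, the chromosome-untangling topoisomerase, at 15.9 to 47.0 and 10.3 to 16.8 CPM, both with overlap. A match is a description of letters, not a site shown to be used.

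Transcripts of late spermatids had higher values below 700, with 0 past the adjusted threshold. Of 26 genes listed for elongating spermatids, all tested, 23 were higher at an unadjusted p under 0.05 and 0 lower. Of all genes, 9.07% were higher and 6.72% lower. Libraries of the 2 ranges did not overlap in 7 of the 26 (1.55% of all genes, higher below 700), and the median was 1.10. The median was 0.38 within HET and 1.64 within KO. The test of the difference between genotypes called 0 of all genes, so it does not show that these medians are alike. DESeq2 called 13 of the 26 higher (1.12% of all genes).

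Prm1 (NCBI Gene 19118; GRCm38.p6 chromosome 16, 10796332 to 10796823), a protamine that packs sperm DNA, was at 2.33, 0.825, 2.72, 4.62 and 7.84 CPM below 700 and at 0.454, 0.581, 0.641, 0.661 and 0.538 CPM at 700 and above. All 3 KO libraries and HET-692 stood well over the other range, HET-693 only just, and the WT libraries ran from 0.501 to 3.24 CPM, into the range of both. The difference was 2.34 ± 0.45 (edgeR adjusted p = 0.200). Tnp2, a transition protein that replaces histones before the protamines, was at 8.04, 4.34, 6.37, 12.8 and 17.6 CPM against 3.21, 2.98, 3.12, 2.27 and 4.18 CPM (1.48 ± 0.34, adjusted p = 0.200). Akap4, a scaffold of the sperm tail sheath named after its values were seen, was at 9.29 to 30.0 against 3.37 to 6.99 CPM (1.38 ± 0.35), and Prm2, the other protamine, at 18.9 to 41.1 against 9.47 to 18.9 CPM with overlap (1.15 ± 0.27).

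Fewer genes of earlier germ cells were under 0.05. Among 24 tested genes of meiotic spermatocytes 14 were higher and 0 lower at an unadjusted p under 0.05. Of all genes, 9.07% were higher and 6.72% lower, the shares for each list here. The ranges did not overlap in 2 of them (1.55% of all genes, higher below 700), and the median was 0.57. Smc1b, a meiotic cohesin, was at 1.51, 1.44, 1.94, 2.24 and 3.10 CPM below 700 and 0.734, 0.871, 0.769, 1.01 and 1.43 CPM at 700 and above, with KO-739 just under HET-693 (0.95 ± 0.18, adjusted p = 0.200). Pgk2, a glycolytic enzyme of spermatocytes and spermatids, was at 4.77 to 13.1 and 2.49 to 4.30 CPM (1.003 ± 0.26). Among 22 genes of round spermatids 9 were higher and 0 lower, with a median of 1.10, as large as that of elongating spermatids (0.01 within HET, 1.80 within KO). Without KO-738 the count was 6 and the median 0.66, and without HET-692, HET-693 or HET-718 the count was 13. The calcium channel subunit Catsper4 and the acrosomal protease Acr overlapped between the ranges, with differences of 1.30 ± 0.30 and 1.28 ± 0.31. Among 15 tested genes of spermatogonia 5 were higher and 2 lower, with a median of 0.09.

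The score of the elongating spermatid list was 0.79, 0.18, 1.06, 1.18 and 1.72 below 700 and 0.10, 0.24, 0.05, -0.45 and 0.09 at 700 and above. HET-693 lay inside the other range, and KO-696, the deepest library at 41.96 M counts, was the highest. Without KO-738, the lowest library, 18 members were under 0.05 and the median was 0.76, and the most with 1 library left out was 24. For spermatocytes 7 were under 0.05 without KO-738, 8 without KO-696 and 9 without HET-692, in place of 14. Of 11 tested genes of the somatic cells of the testis, 0 were higher and 1 lower, with a median of 0.04. The Sertoli cell factor gene Sox9, which epididymal cells also express, differed by 0.24 ± 0.13 and the steroid enzyme gene Cyp17a1 by -0.50 ± 0.17. In whole tissue, more cells of a kind and more RNA per cell cannot be told apart.

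Of the 22 elongating spermatid genes with an upstream window, in 29 windows, 0 held the cAMP response element TGACGTCA, a palindrome bound by the spermatid factor of the Crem gene, against 1.5% of all windows. This says only that these letters are not in those 250 bases.

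**Figure D2:**
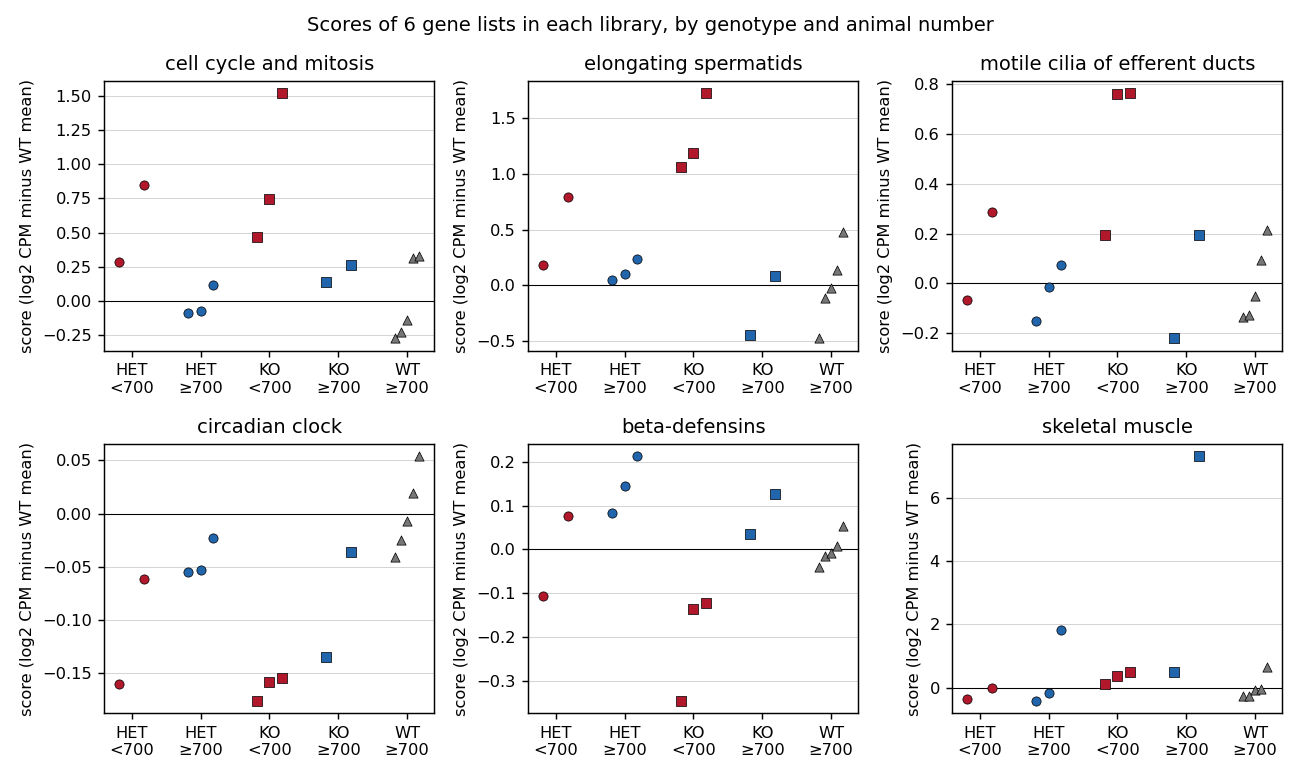
Scores of 6 gene lists (y axis, mean log2 CPM of the tested members minus the WT mean), with 1 point per library, by genotype and number range on the x axis; points of a group are set side by side from low to high. Red marks numbers below 700, blue mutants at 700 and above, grey WT. For the cell cycle all 5 red points lie above the blue ones, and for skeletal muscle 1 library, KO-739, stands at 7.34.

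Genes of motile cilia, which in this organ mark the efferent ducts, showed a smaller shift. Of 26 listed genes, all tested, 10 were higher and 0 lower at an unadjusted p under 0.05 (9.07% and 6.72% of all genes). The ranges did not overlap in 1 of them (1.55% of all genes, higher below 700). The median was 0.42 (0.13 within HET, 0.63 within KO). The cilia gene Cfap126 was at 4.61, 3.95, 4.08, 5.90 and 6.57 CPM below 700 and 3.28, 3.59, 3.38, 2.61 and 3.05 CPM at 700 and above, with HET-693 the lowest of its range and HET-718 the highest of the other (0.65 ± 0.18, adjusted p = 0.204). Foxj1, the master regulator of motile cilia, was at 5.42 to 17.7 and 4.53 to 7.01 CPM with overlap (0.80 ± 0.32). The list score was 0.76 in both KO-695 and KO-696 and 0.29 or lower in the other 8 mutants. Without HET-692 or without KO-738 the count was 4 in place of 10, and without HET-735 or without KO-696 it was 6. Some of these genes also serve the sperm tail, and the part of germ cell transcripts in this list was not tested.

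Cnmd (NCBI Gene 16840; GRCm38.p6 chromosome 14, 79637682 to 79662194), which encodes chondromodulin, a cartilage protein that hinders vessel growth, had the second smallest p of the genes higher below 700 under the naming rule. It was at 6.53, 4.09, 8.38, 9.85 and 11.6 CPM below 700 and at 1.33, 1.74, 2.91, 1.83 and 3.11 CPM at 700 and above. Every library below 700 exceeded every other mutant library, and the WT libraries were lower still, at 0.161 to 1.30 CPM. The difference was 1.73 ± 0.26 (edgeR adjusted p = 0.174), with 1.44 within HET and 2.01 within KO, from 38 to 500 counts per mutant library. Comp, an oligomeric protein of cartilage and tendon matrix, was at 2.10, 1.11, 2.68, 2.35 and 2.82 CPM against 0.629, 1.05, 0.855, 0.85 and 1.22 CPM, with HET-693 inside the other range (1.14 ± 0.23, adjusted p = 0.200).

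Of the 10 tested cartilage and tendon genes, 3 were higher, Cnmd and Comp included, and 0 lower at an unadjusted p under 0.05. The shares over all genes were 9.07% and 6.72%. The list's median was 0.31, and 0.18 without KO-738. The third, the cartilage collagen Col2a1, was at 0.144 to 0.755 CPM below 700 and 0 to 0.145 CPM above, 27 counts or fewer in each library. The tendon genes Scx and Tnmd differed by 0.22 ± 0.11 and 0.36 ± 0.20, with overlap. The fibroblast and collagen score ran from -0.01 to 0.90 below 700 and from -0.01 to 0.93 at 700 and above, with the 3 KO libraries below 700 and KO-739 the highest, and its part in Cnmd and Comp was not tested.

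Other genes of smallest p among those higher below 700 came from several functions. Oxct2a (NCBI Gene 64059; GRCm38.p6 chromosome 4, 123321875 to 123323679), a ketone-body enzyme of spermatids, was at 0.916, 0.61, 0.776, 1.03 and 1.34 CPM against 0.175, 0.254, 0.299, 0.283 and 0.149 CPM, from 5 to 58 counts per mutant library (1.98 ± 0.29, adjusted p = 0.174). The testis genes Hspb9, a small heat shock protein, and Tsga10ip differed by 1.005 ± 0.18 and 1.39 ± 0.26, and neither overlapped. Fibp (NCBI Gene 58249; GRCm38.p6 chromosome 19, 5460598 to 5465052), which encodes a protein that binds acidic fibroblast growth factor, had a small but even difference: 32.4, 29.8, 30.1, 32.2 and 30.8 CPM against 25.5, 25.9, 24.5, 26.4 and 25.0 CPM (0.29 ± 0.05, adjusted p = 0.200). The WT libraries ran from 26.02 to 31.4 CPM, across both ranges.

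**Figure D3:**
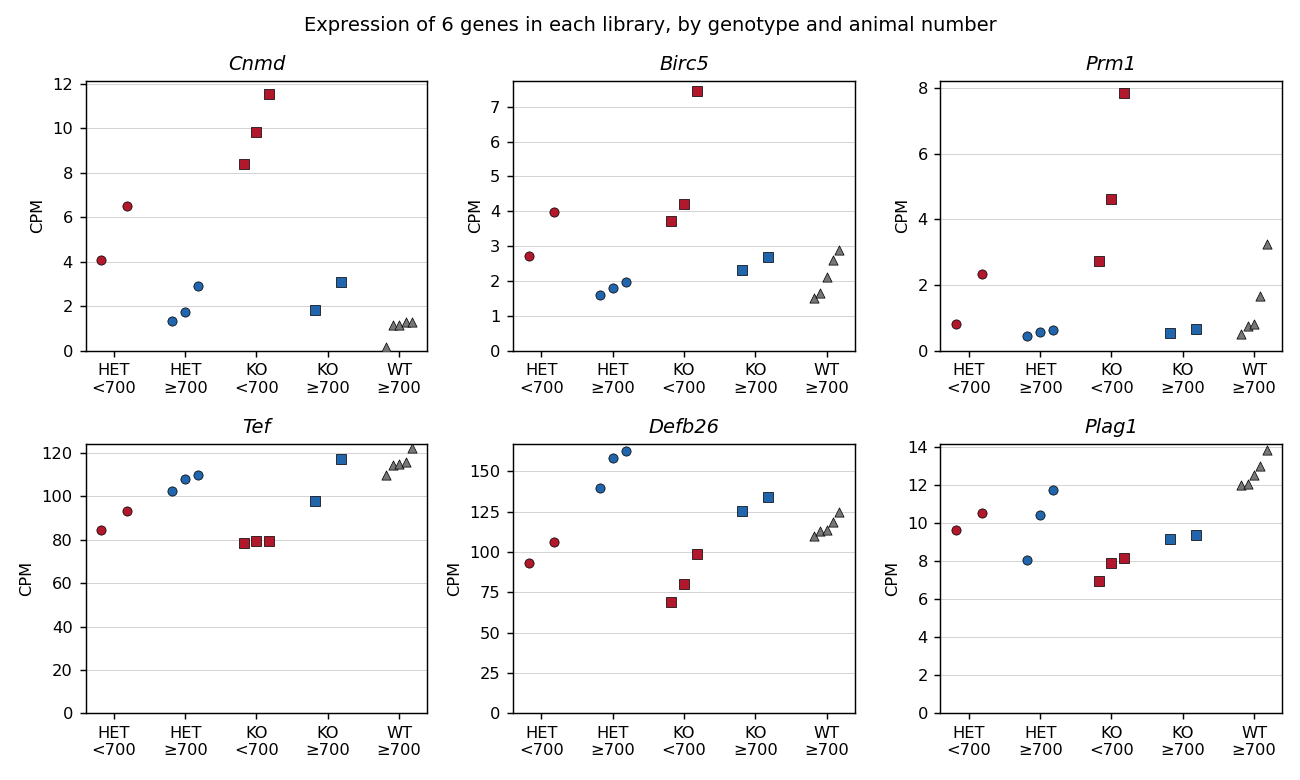
CPM (y axis, from 0) of 6 genes in each library, by genotype and number range on the x axis; points of a group are set side by side from low to high. Cnmd, Birc5 and Prm1 are higher in the red points (below 700), Tef and Defb26 lower, and Plag1 overlaps.

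Clock genes were under 0.05 in both directions, with 0 past the adjusted threshold. Of 21 listed clock genes, all tested, 7 were lower (6.72% of all genes were) and 2 higher (9.07%) at an unadjusted p under 0.05. In 3 the ranges did not overlap, all lower below 700 (1.22% of all genes). The median was -0.08, and 8 of the 21 differences were positive. Tef (NCBI Gene 21685; GRCm38.p6 chromosome 15, 81802673 to 81826863), a PAR bZIP factor, was at 93.3, 84.3, 79.2, 78.4 and 79.6 CPM below 700 and at 108, 109.9, 102, 117 and 97.8 CPM at 700 and above. The ranges did not overlap, and WT, at 109.8 to 122 CPM, lay with or above the libraries at 700 and above. The difference was -0.35 ± 0.06 (edgeR adjusted p = 0.200), with -0.26 within HET and -0.44 within KO.

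Nr1d2, a nuclear receptor that represses Arntl, was at 94.8, 99.1, 95.3, 77.3 and 91.1 CPM against 118, 122, 111, 114 and 109 CPM, again without overlap (-0.31 ± 0.06, adjusted p = 0.200). Hlf, Dbp, Per2, Rora and Wee1, named after their values were seen, differed by -0.40 ± 0.09, -0.33 ± 0.13, -0.33 ± 0.12, -0.18 ± 0.05 and -0.19 ± 0.06, and of these only Rora did not overlap. In the other direction were Arntl, at 16.0, 19.1, 18.3, 18.6 and 21.0 CPM against 14.9, 13.9, 16.5, 14.4 and 17.5 CPM (0.25 ± 0.08), and Npas2, at 2.76 to 5.30 against 1.81 to 3.43 CPM (0.54 ± 0.16). WT held 12.2 to 13.3 CPM of Arntl, below every mutant library. Times of collection are not given in the sources used here. DESeq2 called 3 of the 21 lower and 0 higher (1.09% and 1.12% of all genes).

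The Tef window is shown because it is the clock gene of lowest p whose upstream 250 bases hold the E-box CACGTG, a palindrome bound by Arntl with its partners, in capitals.
Tef (chr15:81802423-81802672, plus strand): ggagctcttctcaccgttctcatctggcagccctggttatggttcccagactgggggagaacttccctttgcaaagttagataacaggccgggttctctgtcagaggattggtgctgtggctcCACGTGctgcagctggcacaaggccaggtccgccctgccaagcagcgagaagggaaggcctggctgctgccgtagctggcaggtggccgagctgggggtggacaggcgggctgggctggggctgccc
Tef has 2 RefSeq windows, and the one at the annotated gene start is printed. Of the 21 genes, 17 had a window, in 22 windows, of which 6 (27.3%) held CACGTG, against 6.0% of all windows. The D-box TTATGTAA or TTACATAA, bound by the PAR bZIP factors, was in 1 (4.5%), against 0.8% of all.

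Several beta-defensins, secreted proteins that coat maturing sperm, had lower values below 700. The list was drawn up after single members had been seen among the smallest p-values, so its counts are a description. Of 37 tested, 12 were lower and 0 higher at an unadjusted p under 0.05 (6.72% and 9.07% of all genes). In 5 the ranges did not overlap, all lower below 700 (1.22% of all genes). The median was -0.18 (-0.18 within HET, -0.26 within KO). DESeq2 called 11 of the 37 lower (1.09% of all genes). With 1 library left out the median ran from -0.25 (without HET-693) to -0.13 (without KO-739). The beta-defensins lie in separate clusters. Under 0.05 were 8 of 18 on chromosome 8, 3 of 11 on chromosome 2, 1 of 5 on chromosome 14 and 0 of 3 on chromosome 1. Near-identical copies can share reads, which makes single members uncertain.

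Defb26 (NCBI Gene 654457; GRCm38.p6 chromosome 2, 152507756 to 152511736) was at 93.0, 107, 98.6, 80.3 and 68.8 CPM below 700 and at 158, 163, 139.6, 134 and 125 CPM at 700 and above. The ranges did not overlap, and WT lay between or at their edges, at 110.0 to 125 CPM. The difference was -0.64 ± 0.09 (edgeR adjusted p = 0.174), alike within HET (-0.62) and KO (-0.65). Defb37, on chromosome 8, was at 77.9, 90.0, 74.8, 56.1 and 60 CPM against 144, 104, 116, 116 and 94.1 CPM (-0.63 ± 0.11, adjusted p = 0.200). Defb28, Defb10 and Defb39, named after their values were seen, did not overlap either, with -0.66 ± 0.12, -0.53 ± 0.12 and -0.50 ± 0.15. The abundant Defb20, at 3271 to 3937 CPM below 700 and 2969 to 4023 CPM above, overlapped (0.13 ± 0.10).

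Protease inhibitors of the SPINK, SPINT and WFDC families were also listed after values were seen. Of 30 tested, 10 were lower and 1 higher at an unadjusted p under 0.05 (6.72% and 9.07% of all genes). The ranges did not overlap in 1, lower below 700 (1.22% of all genes), and the median was -0.21. The median was -0.01 within HET, where 13 of 30 differences were positive, and -0.40 within KO, where 5 were. Spinkl (NCBI Gene 77424; GRCm38.p6 chromosome 18, 44166358 to 44176707), which encodes a Kazal-type inhibitor-like protein, had the smallest p of all named genes. It was at 53.4, 50.9, 42.1, 39.3 and 35.0 CPM below 700 and at 75.6, 69.6, 71.5, 75.9 and 58.9 CPM at 700 and above, with WT at 67.3 to 89.3 CPM. The lower range was clear of both other groups, and the difference was -0.63 ± 0.09 (adjusted p = 0.174). Spink10 overlapped between the ranges (-0.40 ± 0.09).

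Lists of the duct's own regions and hormone response had 3 to 5 members under 0.05 in their main direction. Of all genes, 9.07% were higher and 6.72% lower. For the initial segment, 4 of 22 were higher and 1 lower, and Ggt1, an enzyme of glutathione breakdown, was at 147 to 176 CPM below 700 and 134 to 146 CPM above (0.19 ± 0.05). For the caput 4 of 17 were lower and 0 higher, with Rnase12 at 385 to 519 and 527 to 586 CPM (-0.29 ± 0.06, no overlap), and for the corpus, cauda and vas deferens 4 of 17 were lower and 0 higher. Among 10 genes of clear cells, the acid-secreting cells, 3 were lower and 1 higher, with the carbonic anhydrase Car2 at -0.35 ± 0.08. Of 17 androgen response genes, 5 were lower and 1 higher, among the former Mme, a membrane peptidase (-0.37 ± 0.09). The abundant sperm-coating protein gene Crisp1 was at 14940 to 25559 CPM below 700 and 20603 to 31541 CPM above (-0.40 ± 0.15, adjusted p = 0.249). The medians of these 5 lists lay between -0.19 (corpus, cauda and vas deferens) and 0.15 (initial segment). Without KO-739 these were -0.02 and 0.02, and without KO-738 they were -0.11 and 0.28. For clear cells 1 was lower without KO-738 or without KO-696, and for the androgen response 2 were lower without KO-738.

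Among cell-wide processes, cytosolic ribosomal protein genes were lower more often than higher, by small amounts. Of 86 tested, 26 were lower and 6 higher at an unadjusted p under 0.05 (6.72% and 9.07% of all genes). Their median was -0.08 (-0.06 within HET, -0.09 within KO). The list score overlapped, from -0.124 to -0.028 below 700 and from -0.139 (KO-739) to 0.045 (HET-718) at 700 and above. Rpl5, of the large subunit, was at 755, 851, 725, 695.1 and 679.7 CPM below 700 and 951, 959, 930.0, 827 and 892 CPM above, with HET-693 inside the upper range (-0.27 ± 0.05, adjusted p = 0.200), and Rps3a1, of the small subunit, differed by -0.24 ± 0.05. Of 21 xenobiotic and antioxidant genes 6 were lower and 0 higher, led by the sulfiredoxin gene Srxn1 (-0.35 ± 0.08, no overlap). Ccn2, a matrix protein induced by mechanical stress and growth factors, was at 28.8, 22.8, 24.6, 27.7 and 29.2 CPM against 41.7, 36.1, 37.2, 33.7 and 54.7 CPM (-0.63 ± 0.13, adjusted p = 0.200, no overlap). The heat shock gene Hspa1b was in the other direction (0.78 ± 0.19, no overlap), while 1 of 14 chaperone genes was higher and 2 were lower.

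Pi4k2b and Ildr2 completed the genes of smallest p among those lower below 700 and belong to none of the lists. Pi4k2b (NCBI Gene 67073; GRCm38.p6 chromosome 5, 52741561 to 52769344), a phosphatidylinositol kinase of membrane traffic, was at 16.2, 17.4, 20.2, 12.9 and 15.9 CPM below 700 and 30.2, 27.6, 28, 23.5 and 23.9 CPM at 700 and above. The groups did not overlap and WT, at 23.1 to 28.8 CPM, lay with the upper range (-0.65 ± 0.10, adjusted p = 0.200). Ildr2, a membrane protein of the immunoglobulin family, was at 45.9 to 56.8 against 64.2 to 75.3 CPM (-0.32 ± 0.06).

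Lists for tissues next to the duct varied much between libraries. At an unadjusted p under 0.05, 9.07% of all genes were higher and 6.72% lower. For skeletal muscle 10 of 18 genes were lower and 0 higher, with a median of -3.94, but without KO-739 0 were under 0.05 and the median was -0.39. Myh1, a fast myosin, was at 0.325, 0.395, 2.91, 2.10 and 1.39 CPM below 700 and at 0.245, 11.5, 0.427, 1.95 and 899 CPM at 700 and above, so that KO-739 and, far below it, HET-718 set the difference. Pvalb, a calcium buffer of fast fibres, was at 176 CPM in KO-739 and at 1.45 CPM or less in every other mutant library. The fat cell hormone Adipoq was at 3.04, 1.90, 4.43, 17.9 and 1.25 CPM against 0.594, 0.944, 0.898, 4.31 and 2.15 CPM, highest in KO-695, with 0 of 16 fat genes under 0.05 and a median of 0.74 (0.82 within HET, 0.40 within KO). Without KO-695 the fat median was 0.16, and without KO-696, the lowest of its range, 6 members were higher and the median was 0.98. KO-695 was also the highest library on the cell cycle score, and the part of fat in that score was not tested.

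Stromal and immune lists held few genes under 0.05: there were 1 of 26 for fibroblasts and collagens, 0 of 15 for smooth muscle, 0 of 17 for endothelium, 2 of 17 for macrophages (all higher), 0 of 8 for lymphocytes and 1 of 25 for the interferon response. Of all genes, 9.07% were higher and 6.72% lower. The medians of these lists lay between -0.07 and 0.19, and these small values depended on single libraries. For fibroblasts and collagens the median was -0.005 without KO-738 and 0.32 without KO-739, when 8 were higher, and without HET-693 6 were higher. For macrophages 0 were higher without KO-738 and 5 without HET-693, and for the interferon response 4 were lower without KO-696. Of 7 tested MHC class II genes 3 were lower and 0 higher, but 0 were lower without KO-695 or without KO-696. Their median was -0.61, and -0.13 without KO-738. H2-DMa, which loads peptides onto these molecules, was at 1.51, 1.44, 2.17, 0.979 and 1.06 CPM below 700 and 1.08, 1.02, 3.98, 3.81 and 5.61 CPM above, and the WT libraries spanned 1.28 to 6.47 CPM. Of 12 mesothelial genes 2 were higher and 1 lower, with 5 positive and a median of -0.02. Among them Krt19, a keratin that duct cells also make, was at 167 to 241 against 119 to 162 CPM (0.50 ± 0.12, no overlap). Of 6 tested seminal vesicle and prostate genes 3 were lower and 1 higher, with a median of -0.19, and 1 was lower without KO-739, KO-695 or KO-696. The 1 that was higher, Svs2, a seminal vesicle secretion, was at 2.25, 5.35, 9.90, 10.9 and 7.45 CPM against 0.734, 1.20, 1.496, 2.68 and 5.61 CPM, with overlap (1.43 ± 0.30).

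The remaining lists held up to 4 genes under 0.05 each way, apart from the histones (9.07% of all genes were higher and 6.72% lower). Replication-dependent histone genes serve S phase, and their RNAs, which mostly lack a poly(A) tail, also bear on poly(A) selection. Of 27 tested, 6 were higher and 0 lower, with a median of 0.28 (0.39 within HET, 0.03 within KO). Without HET-692 only 1 was higher, without HET-715 2 were, and without HET-693 4 were higher and 3 lower. Of 4 tested red blood cell genes 2 were higher (0 without HET-692, KO-738 or KO-739), and the haemoglobin gene Hba-a1 was at 10.5, 5.17, 14.7, 20.8 and 10.7 CPM below 700 and 7.51, 6.17, 4.62, 5.41 and 6.57 CPM above, highest in KO-695. Of 25 immediate early genes 4 were lower and 2 higher, and of 16 genes of the glucocorticoid and fasting response 2 were higher and 1 lower. In the latter, the metallothionein Mt2 was at 77.6, 58.0, 53.8, 141 and 56.2 CPM against 40.1, 48.7, 44.4, 50.2 and 47.9 CPM without overlap (0.70 ± 0.28). Of 22 growth and imprinted genes 1 was higher and 1 lower: Igfbp6, a binding protein of insulin-like growth factors, at 0.53 ± 0.13, and the growth factor gene Igf2 at -0.44 ± 0.13, both with overlap. The 11 basal cell genes held 0 under 0.05, the 12 of nerve and glia 1 higher, the 20 of cholesterol synthesis 2 higher, and the 22 of the unfolded protein response 2 higher and 1 lower. For MHC class I 1 of 12 was higher and 1 lower, as for genes often differing between mouse strains (20 tested) and genes that decline with postnatal growth (17 tested). For the neutrophil list 1 of 5 was higher and 1 lower, and for nuclear RNAs 1 of 9 was lower.

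**Figure D4:**
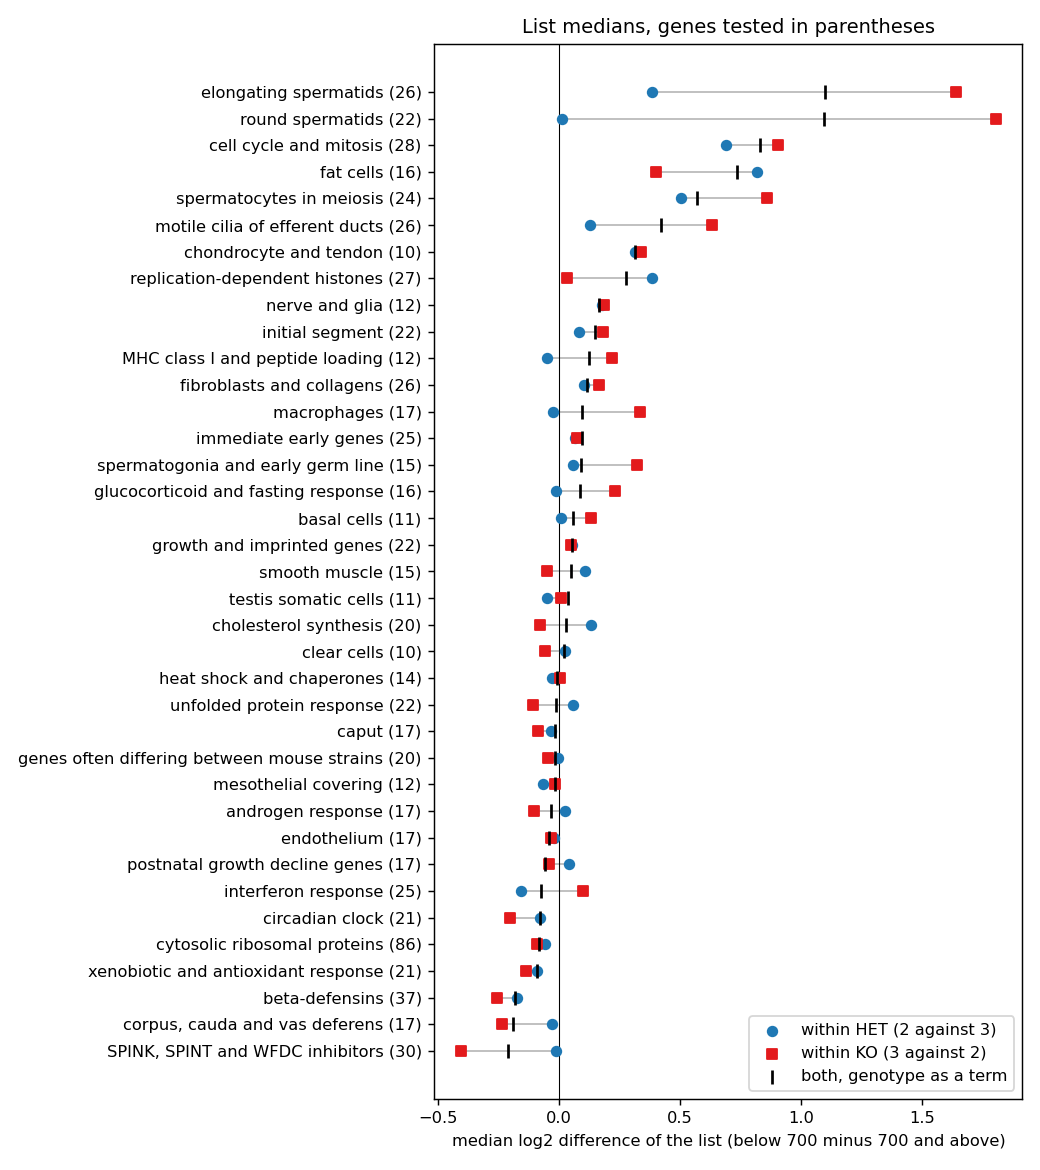
Median number range difference (x axis, log2, below 700 minus 700 and above) of 37 gene lists with at least 10 tested genes (y axis; skeletal muscle, at -3.94, is left out), within HET, within KO and with genotype as a term. The cell cycle list lies at 0.69 and 0.91 in the 2 genotypes, while the round spermatid list lies at 0.01 in HET and 1.80 in KO.

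The WT libraries, which the split did not use, give a reference for the genes whose mutant ranges did not overlap. Of the 316 genes higher below 700, all 5 WT libraries lay under every library of the lower range in 71 (22.5%) and over every mutant library at 700 and above in 8 (2.5%). Of the 249 genes lower below 700, all 5 WT libraries lay over the lower range in 55 (22.1%) and under the upper range in 27 (10.8%). The WT median was nearer to the upper range in 189 (59.8%) of the former and 136 (54.6%) of the latter. The same shares were not taken over all genes, so these values describe only the genes picked by non-overlap. WT animals share the upper number range but differ in genotype from both sets, and these cannot be told apart.

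The number range is unevenly spread over the genotypes, so KO was also compared with HET with range as a term. This called 0 genes, as did genotype alone, with 2183 (10.7%) higher and 1151 (5.65%) lower in KO at an unadjusted p under 0.05. DESeq2 called 734, and edgeR without KO-738 called 1337.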

How the data were processed

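The deposited values are raw read counts per NCBI Gene ID, 1 column per animal, made by the authors by aligning reads to GRCm38.p6 with HISAT2 2.0.5 and counting with featureCounts (Subread 1.4.6p5), after FastQC, per the submitters' processing notes; strand setting and annotation release are not given in the sources used here. Libraries were made with a stranded mRNA kit, per the labels' protocols. This leaves overlapping, antisense and near-identical genes uncertain. RefSeq GRCm38.p6 gave names to 40290 of 41591 IDs (96.9%), and coordinates and promoter windows; the 1301 others stayed in the library sizes. Mitochondrially encoded genes are not reported here.

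Counts were tested with edgeR 4.0.16 in R 4.3.3 (TMM, filterByExpr at 10 counts, robust dispersion, quasi-likelihood test, two-sided) on the 10 mutant libraries, with genotype and range as terms (7 residual degrees of freedom) or a mean per genotype and range (6). P-values were adjusted by Benjamini-Hochberg over 20382 genes, threshold 0.05. CPM use TMM factors of all 15 libraries; scores use a prior count of 2. The biological coefficient of variation, which leaves counting noise out, was 16.2%. Within a genotype and range the chi-square per degree of freedom was 5.61 or more, so none is a duplicate. Each library is 1 animal, but shared litters or days are not known, and p-values assume independent animals.

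Animals, lists and comparisons were chosen with earlier results of these data known. Of 45 lists, 2 (beta-defensins; SPINK, SPINT and WFDC inhibitors) were added after values were seen; of 988 entries 1 had no match and 6 were matched by synonym. Named genes are Plag1, the 5 smallest p-values each way (symbols of named genes only, mean of 1 CPM or more in some group), and up to 2 members per list of smallest p; Mcm, Pcna, Rrm2, Prm2, Foxj1, Col2a1, Scx, Tnmd, Arntl, Npas2, Defb20, Myh1, Gpx5, Crisp1 and those of the printed promoters were, like the genes so marked in the text, named after their values were seen. Alternatives were RLE and upper quartile factors, leaving out the 20 most abundant genes, a filter at 50 counts or none, DESeq2 1.42.0, voom with quality weights (limma 3.58.1), all 15 libraries, 1 genotype alone, and leaving out libraries. The test was checked on simulated counts. These held no departure of a single library like those of KO-738 and KO-739, so the check does not bear on them. Figures were drawn in matplotlib 3.10.9 (Python 3.11.15, pandas 2.3.3).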

Additional observations from a re-analysis of the deposited data

Results flagged for a closer look

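Sets of 5 values, from genes named in the text and list scores, were tested within the mutants of a number range. In 21 of the 244 sets, 1 library stood far from the other 4. The measure was the gap to the nearest library as a share of the range, on a log scale for genes. Chance gives about 1 in 20 for independent values from a single group. These sets mix HET and KO, share libraries and include genes named for small p-values, so that rate is no measure of excess here. Values are CPM for genes and scores for lists, followed by the span of the other 4 libraries.

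KO-739 stood apart most often among mutants at 700 and above. Its scores were 0.926 for fibroblasts and collagens (others -0.01 to 0.137), 0.408 for nerve and glia (-0.101 to 0.038), 1.826 for seminal vesicle and prostate (0.066 to 0.497) and -0.135 for the circadian clock (-0.055 to -0.023). It was the lowest for Hlf, a clock output gene, at 41.2 CPM (50.1 to 52.4), for the peptidase gene Mme at 191.9 CPM (251 to 271) and for Crisp1 at 20600 CPM (28456 to 31541), and the highest for Catsper4 at 0.448 CPM (0.218 to 0.256).

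KO-738 was the lowest for the score of elongating spermatids, at -0.45 (0.047 to 0.239), and for Akap4, at 3.37 CPM (6.03 to 6.99). HET-715 was the highest for Ildr2, at 75.3 CPM (64.2 to 65.0), and for Wee1, at 46.2 CPM (38.9 to 39.6). The score of MHC class I and peptide loading was -0.337 in HET-735 (0.063 to 0.112), and that of the unfolded protein response 0.045 in HET-718 (-0.06 to -0.033).

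Below 700, HET-693 was the lowest for smooth muscle, at -0.415 (-0.023 to 0.114), and for basal cells, at -0.17 (0.118 to 0.213). KO-696 was the highest for the interferon response, at 0.731 (-0.125 to 0.063), and for the initial segment, at 0.319 (0.074 to 0.131). HET-692 was the highest for the circadian clock, at -0.061 (-0.176 to -0.154), and the lowest for Defb20, at 3271 CPM (3750 to 3937). Myh7, a slow myosin, was at 0.02797 CPM in KO-695, which is 1 count, and at 0 in the other 4.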

How the results depend on the processing

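The count of 0 genes for number range with genotype as a term held under RLE and upper quartile factors, without the 20 most abundant genes, with a filter at 50 counts and with voom; it became 5 with no filter, 450 with DESeq2, 10 with all 15 libraries and 102 without HET-693 and KO-738. With 1 library left out it ran from 0 to 80, and 7 of these 10 fits gave 0; 80 (4 higher, 76 lower) came without KO-738, 2 without KO-694 and 2 without KO-739. Within HET the count was 3 with DESeq2, 2 without HET-693 and KO-738, 11 with the 5 HET libraries alone, and 0 to 2 with 1 library left out. Within KO it was 28 with RLE, 28 with upper quartile factors, 28 without the 20 most abundant genes, 128 with no filter, 899 with DESeq2, 545 with all 15 libraries, 1767 without HET-693 and KO-738, and 0 to 1256 with 1 library left out (1256 without KO-738, 379 without KO-739, 82 without KO-694); the 5 KO libraries alone gave 0. For the difference between genotypes it was 10 with DESeq2, 164 without HET-693 and KO-738 and 0 to 226 with 1 library left out (226 without KO-738). For KO against HET with range as a term it was 16 with no filter, 734 with DESeq2, 362 with all 15 libraries, 535 without HET-693 and KO-738 and 0 to 1337 with 1 library left out (1337 without KO-738). The cause was not tested. Leaving out a library can leave 1 in a genotype and range, which is then assumed to vary like the others.

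Of the named genes only Rn18s-rs5 and Rrm2 changed sign. Rn18s-rs5, an 18S ribosomal RNA gene at -0.34, was at 0.30 with DESeq2, 1.01 with voom and 0.81 without HET-693 and KO-738, and from -1.27 to 1.45 with 1 library left out. Rrm2, at 0.01, ran from -0.0375 to 0.059 with 1 library left out. Of 2330 values of named genes under the alternatives, 83 passed the adjusted threshold. Of 853 list medians under the alternatives, 48, from 19 lists, had the other sign, and 30 moved by more than the spread between replicates; the medians of the cell cycle, spermatocyte, spermatid, cilia, clock, beta-defensin, protease inhibitor and ribosomal protein lists kept their sign. Depth limits little here beyond genes of a few counts, such as Oxct2a and Col2a1. No paired analysis was possible because the ranges share no animal numbers.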
